A study of Mus musculus with 4 samples.

Results

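The genes described here are 10 that a type 2 alveolar cell uses to make, store and secrete surfactant and its companion proteins: Sftpc, Sftpb, Sftpa1, Sftpd, Napsa, Lamp3, Abca3, Slc34a2, Lyz1 and Lyz2. They were chosen by name from the 32289 features of the count matrices, and each matched 1 feature. RNA was counted in single cells of lung tumours from mice labelled with p53frt, Rosa-FSF-CreERT2 and Hnf4aflox in every group. By that label the animals given vehicle carried the same alleles as those given tamoxifen. The sample titles, however, use a different abbreviation for each treatment. Tumours were begun by intubation with an adenovirus carrying FlpO, a Flp recombinase, under mSPC, the mouse promoter of Sftpc, which is itself among the 10 genes. Tamoxifen, which activates CreERT2, or its vehicle was injected 10 weeks later, and tumours were taken 2 weeks after the injection. Part of each suspension was frozen untouched, and the rest was first depleted of CD45-positive leukocytes and CD31-positive endothelial cells. Each of the 4 combinations of treatment and depletion is thus represented by a single library. The labels state neither the ages of the mice nor the number of mice or tumours pooled. The libraries before and after depletion share their suspensions, so they do not replicate each other, and no test between treatments was possible.

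Pulmonary surfactant is a film of phospholipid and protein that lowers surface tension in the air spaces. Type 2 cells assemble its lipids and the hydrophobic proteins B and C in lamellar bodies, which are secreted at the apical surface, and they also secrete the collectins A and D, which bind microbes and regulate the film. In lung adenocarcinoma these genes serve as a readout of how much alveolar identity tumour cells keep. The transcription factor NKX2-1 is a main activator of Sftpc, Sftpb, Sftpa1 and several others of the set. Mice carry a pair of lysozyme genes, of which Lyz2 is made by macrophages, neutrophils and type 2 cells, whereas Lyz1 is best known from Paneth cells of the gut.

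The genes lie on 7 mouse chromosomes (GRCm38, GENCODE release M21), and all 10 are annotated as protein coding. Sftpc is at chr14:70520949-70524081 on the minus strand, and Sftpa1 (chr14:41131782-41136452, plus strand) lies 35761 bases from Sftpd (chr14:41172214-41185149, minus strand). Lyz1 (chr10:117287797-117292868) and Lyz2 (chr10:117277331-117282321) are neighbours on the minus strand, 5475 bases apart. Sftpb is at chr6:72304610-72314371, Napsa at chr7:44572380-44586862, Lamp3 at chr16:19653378-19706375, Abca3 at chr17:24351950-24410201 and Slc34a2 at chr5:53038081-53071664. Napsa, Slc34a2 and Abca3 each overlap at least 1 annotated gene on the other strand, and the use of strand in counting is not given in the sources used here, so a part of their counts cannot be assigned with certainty.

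Promoter windows from RefSeq (GRCm38.p6) were found for 7 of the 10 genes (not for Sftpc, Sftpd or Napsa), and 4 are printed because the results below turn on these genes. Each runs 5′ to 3′ on the gene's strand over the 250 bases before RefSeq's transcription start. Sftpa1 and Sftpb are shown as the pair of surfactant proteins that varied most and least between the epithelial-like cell states described below. Their windows are at chr14:41131538-41131787 and chr6:72304360-72304609, both on the plus strand. Capitals mark CTCAAG, a core sequence bound by NKX2-1. Lyz1 and Lyz2, at chr10:117292869-117293118 and chr10:117282273-117282522 on the minus strand, are shown as paralogs of closely similar promoter sequence that differed in which cells held their UMIs. In these capitals mark TTGCNNAA, a form of the C/EBP motif in which N is any base.
Sftpa1: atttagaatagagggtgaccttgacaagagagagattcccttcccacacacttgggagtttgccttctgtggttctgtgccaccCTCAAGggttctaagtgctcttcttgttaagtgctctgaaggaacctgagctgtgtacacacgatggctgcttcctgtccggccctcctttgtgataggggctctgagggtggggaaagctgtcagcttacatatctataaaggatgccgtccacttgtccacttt
Sftpb: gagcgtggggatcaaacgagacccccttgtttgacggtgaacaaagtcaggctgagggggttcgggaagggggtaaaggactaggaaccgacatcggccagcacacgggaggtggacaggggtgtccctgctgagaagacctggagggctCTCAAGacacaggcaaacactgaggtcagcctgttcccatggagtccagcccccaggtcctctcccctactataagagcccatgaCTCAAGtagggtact
Lyz1: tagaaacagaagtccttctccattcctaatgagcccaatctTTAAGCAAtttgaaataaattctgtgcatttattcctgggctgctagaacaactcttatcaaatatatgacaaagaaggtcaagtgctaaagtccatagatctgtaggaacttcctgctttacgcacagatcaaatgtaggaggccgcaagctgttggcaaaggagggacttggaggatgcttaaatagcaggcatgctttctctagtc
Lyz2: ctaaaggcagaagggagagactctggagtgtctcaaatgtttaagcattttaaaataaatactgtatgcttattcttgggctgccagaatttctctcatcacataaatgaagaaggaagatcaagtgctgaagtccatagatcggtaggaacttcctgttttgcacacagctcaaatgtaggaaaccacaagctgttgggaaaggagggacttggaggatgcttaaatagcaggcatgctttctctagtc
Both strands were searched with 5 motifs, namely CTCAAG, then TTGCNNAA, then the PU.1 core GAGGAA, then a forkhead sequence, TGTTTAC, and a variant of it, TGTTTGC, with no overlap between matches of different motifs. The NKX2-1 core occurred at 2 places in the Sftpb window and at 1 in the Sftpa1 window, and in 13.3% of all 32851 mouse promoter windows of this length. The Sftpb window also held the forkhead variant on the opposite strand, as 4.30% of all windows hold it on either strand. The C/EBP form, in 9.56% of all windows, occurred in Lyz1 and in Slc34a2. The PU.1 core (23.3% of all windows) was in none of the 7 windows, and the first forkhead sequence (3.17%) was in that of Lamp3. The Lyz1 and Lyz2 windows were 79.4% identical when aligned. Their transcripts were 92.0% identical, and 42.8% of the 25-base words in the last 300 bases of Lyz1 also occurred in Lyz2, so counts of the paralogs are uncertain where a read fell in shared sequence.

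The libraries yielded 92644997 to 144994771 UMIs (unique molecular identifiers, each standing for 1 captured transcript) in 6558 to 7867 barcodes. Any pair of libraries shared 10 to 18 barcodes, 0.152% to 0.274% of the smaller one. After filtering, the class with epithelial markers, called epithelial-like, held 1021 of 7088 cells with vehicle and 1012 of 6105 with tamoxifen before depletion, and 6520 of 6917 and 7087 of 7355 after it. A further 71, 98, 1 and 0 cells formed a state that was led by macrophage genes and held epithelial genes too. It was set apart after the data were seen, so the epithelial-like values leave it out. Hnf4a, the floxed gene, was at 53.7 CPM (UMIs per 1000000 UMIs of the class) with vehicle and 85.7 with tamoxifen before depletion, and at 55.0 and 82.8 after it. Its level was thus higher, not lower, in the libraries labelled tamoxifen. The floxed exons are not given in the labels, and the counts are 3′ tags, so they may lie outside the deleted part, and every direction below is that of the libraries as labelled.

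Surfactant transcripts made up a large part of the RNA of the epithelial-like cells in all libraries. The 10 genes together held 8.49% of the class's UMIs with vehicle and 8.72% with tamoxifen before depletion, and 8.69% and 8.90% after depletion. The 4 surfactant proteins alone held 7.67%, 8.12%, 8.03% and 8.36% in the same order. By mean CPM, Sftpc ranked first of all features, Sftpa1 sixth, Sftpb 11, Lyz2 15, Sftpd 66, Slc34a2 98, Napsa 191, Lamp3 349, Abca3 391 and Lyz1 457. The chemistry counts transcript ends, so CPM was not divided by gene length.

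**Figure D1:**
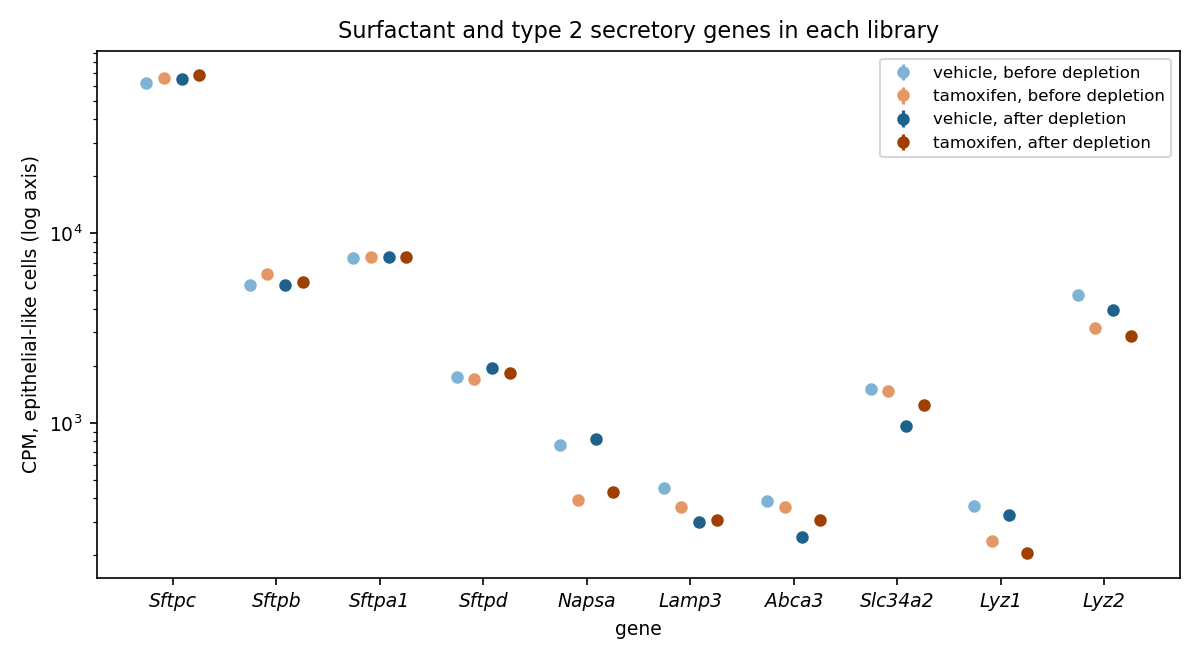
Level of each gene in the epithelial-like cells of the 4 libraries, in CPM on a log axis; each point is 1 library and bars (mostly hidden by the points) are exact 95% Poisson intervals, which cover counting error only. The 4 points of Sftpa1 lie between 7443 and 7537, whereas both tamoxifen points of Napsa (393 and 432) lie below both vehicle points (767 and 822).

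Among the hydrophobic proteins, Sftpc stood at 62172 CPM with vehicle and 65817 with tamoxifen before depletion, and at 65585 and 68734 after depletion. Its lowest and highest libraries were thus close together, and both tamoxifen libraries were above their own vehicle library. Sftpb, which is needed to form lamellar bodies and the surface film, was at 5342 and 6137 CPM before depletion and at 5310 and 5563 after it. Among the collectins, Sftpa1 was at 7443 and 7537 before depletion and at 7473 and 7513 after it, the narrowest spread of the 10 genes. Sftpd was at 1750 and 1704 before depletion and at 1955 and 1839 after it, slightly lower with tamoxifen in both pairs, although under TMM or median of ratios scaling its direction before depletion flipped.

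Of the genes of processing and storage, Napsa encodes napsin A, an aspartic protease that takes part in maturing the surfactant protein B precursor. Its level was 767 CPM with vehicle and 393 with tamoxifen before depletion, and 822 and 432 after depletion. The tamoxifen libraries did not overlap the vehicle libraries, as was also so, in the other direction, for Sftpc, Sftpb and Sftpa1. For Sftpc and Sftpa1 this held only without TMM or median of ratios scaling. Lamp3, a membrane glycoprotein of lamellar bodies, was at 455 and 361 before depletion and at 299 and 309 after it. Abca3, the transporter that loads phospholipid into lamellar bodies, was at 387 and 360 before depletion and at 249 and 308 after it. Slc34a2, the apical sodium and phosphate cotransporter, was at 1510 and 1474 before depletion and at 966 and 1244 after it. For these last genes the vehicle and tamoxifen values overlapped over the 4 libraries.

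The lysozymes were lower in both libraries labelled tamoxifen. Lyz2 was at 4715 CPM with vehicle and 3157 with tamoxifen before depletion, and at 3951 and 2856 after it. Lyz1 was at 363 and 239 before depletion, and at 326 and 206 after it. For both genes each tamoxifen value lay below each vehicle value, as for Napsa. For Sftpc, Sftpb and Sftpa1 each tamoxifen value lay above each vehicle value. The margin was narrow for Sftpc (65817 above 65585) and Sftpa1 (7513 above 7473), and both overlapped under TMM or median of ratios scaling. The share of all genes without such overlap was not counted, so it does not set any of these genes apart.

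Between the libraries before and after depletion, 3 of the genes differed alike. Lamp3, Abca3 and Slc34a2 were lower after depletion than before it by 0.60, 0.64 and 0.64 on the log2 scale in the vehicle libraries (from 455 to 299, 387 to 249 and 1510 to 966 CPM), and by 0.22, 0.22 and 0.24 in the tamoxifen libraries. The other 7 genes differed between -0.25 (Lyz2, vehicle) and 0.16 (Sftpd, vehicle). The share of all genes that fell as far was not counted, so the fall does not set these 3 genes apart. The median epithelial-like cell held 24363 and 28489 UMIs before depletion and 18234 and 16847 after it. State 8, described below, held the highest levels of Lamp3, Abca3 and Slc34a2. It made up 33.5% (vehicle) and 17.1% (tamoxifen) of the epithelial-like cells before depletion, and 23.5% and 15.1% after it. The part of depth, of handling or of state shares in these differences was not tested.

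The epithelial-like cells fell into 12 states, clustered without the 10 genes so that their levels are not what defined the states. State 8, called alveolar type 2-like from other type 2 markers (3113 cells, led by Cbr2, Scd1 and Hc), held the highest level of 8 of the 10 genes. Summed over the libraries, its cells had 176950 CPM of Sftpc, 20138 of Sftpa1, 4633 of Sftpd, 1984 of Napsa, 1065 of Lamp3, 640 of Abca3, 3559 of Slc34a2 and 21036 of Lyz2. A second type 2-like state of 131 cells led by interferon-induced genes (state 10, with Iigp1 and Gbp2) had slightly more Sftpa1 (20307 CPM) and Sftpd (4673), and less of the other 8 genes. The type 2 markers that named both states share cells with the genes described here, so the high levels in them are a description of the states.

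**Figure D2:**
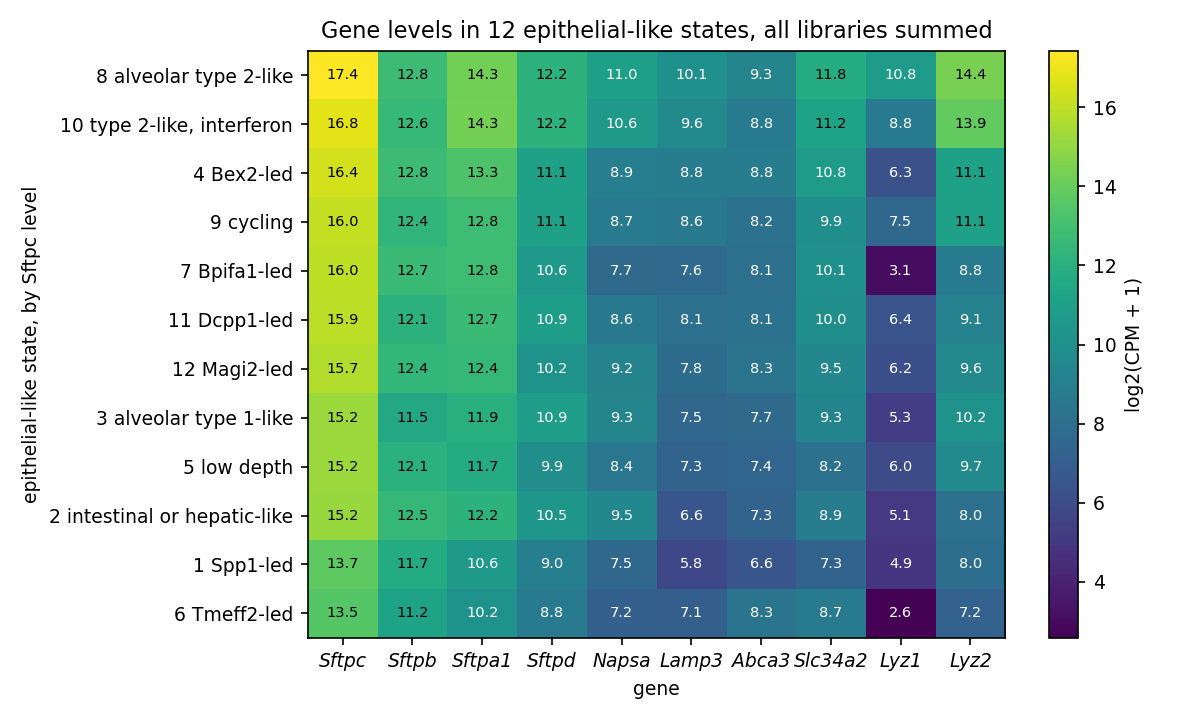
Level of each gene, as log2(CPM + 1), in the 12 epithelial-like states with the 4 libraries summed, states ordered by Sftpc; the printed value and the colour are the same quantity. Sftpb stays between 11.2 and 12.8 in all states, whereas Lyz1 runs from 2.6 in state 6 to 10.8 in state 8.

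The other states kept the genes to very different degrees. State 4 (2963 cells, led by Bex2, Dcn and Zmat4 and given no name) was next, with 88991 CPM of Sftpc, 444 of Abca3 and 1726 of Slc34a2. State 3, alveolar type 1-like (1147 cells, led by Rtkn2, Akap5 and Hopx), held 37354 CPM of Sftpc, and state 2, intestinal- or hepatic-like (1415 cells, led by Ttr and Agr2), held 36702. State 1 (2906 cells, led by Spp1, Aldh1a3 and Hmga2) held 13705 CPM of Sftpc, 55.2 of Lamp3, 93.2 of Abca3 and 156 of Slc34a2, the lowest of the 12 states for these last genes. State 6 (343 cells, led by Tmeff2 and Lrp1b) held the lowest Sftpc, 11634 CPM. Its cells were shallow, with a median of 6816 UMIs of which 13.0% were mitochondrial.

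Sftpb stood apart from the other surfactant genes in how little it varied. Its highest state (7085 CPM, state 8) was 3.03 times its lowest (2341, state 6), against 15.2 times for Sftpc, 17.1 for Sftpa1, 10.8 for Sftpd, 13.9 for Napsa, 19.3 for Lamp3, 6.87 for Abca3 and 22.8 for Slc34a2. State 1 still held 3418 CPM of Sftpb, and the intestinal- or hepatic-like state 5737. In UMIs, Sftpc outnumbered Sftpb 24.98 to 1 in state 8, 19.1 to 1 in state 10, 12.9 to 1 in state 4, 6.40 to 1 in state 2 and 4.01 to 1 in state 1. The span of Sftpb depended on the clustering: it was 14.5 times when the 10 genes were kept in the clustering, 3.40 at a lower resolution and 6.17 at a higher one, and it was the smallest span of the 10 genes except with the genes kept, where that of Abca3 was 9.13 times. With the genes kept, state 8 was recovered almost unchanged, since 98.2% of its cells fell in 1 cluster.

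Both lysozymes were concentrated in state 8. This state held 12.4% of all epithelial-like UMIs but 82.4% of the Lyz1 UMIs and 74.7% of the Lyz2 UMIs, against 33.0% for Sftpc, 41.0% for Lamp3, 39.9% for Napsa and 16.0% for Sftpb. Lyz1 ran from 4.98 CPM in state 6 (14 UMIs) to 1804 in state 8, and Lyz2 from 149 to 21036 CPM in the same states. The low values lie within those of endothelial-like cells without an Epcam UMI (0.644 to 9.75 CPM of Lyz1 and 68.3 to 431 of Lyz2 over the 4 libraries), so no fold is given. State 10 came next with 431 CPM of Lyz1 and 14795 of Lyz2.

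Within state 8 the lysozymes differed from cell to cell in unlike ways. When each cell was thinned to 2000 UMIs, 98.0% of its cells held a Lyz2 UMI but 20.3% held a Lyz1 UMI. Cells with at least 10 Lyz1 UMIs (a limit chosen after the values were seen) were 500 of the 3113, or 16.1% (95% Clopper-Pearson interval 14.8 to 17.4), and they held 98.8% of the state's Lyz1 UMIs, with a median of 108 each. By library such cells were 15.5% of state 8 with vehicle and 12.7% with tamoxifen before depletion, and 16.6% and 16.0% after it. Outside state 8 they were 1.49% of the epithelial-like cells. The median Lyz2 level was 15462 CPM in the 500 cells and 19794 CPM in the 2116 cells of state 8 with no Lyz1 UMI. Outside state 8 the order was the other way, at 1855 CPM in the 187 cells with at least 10 Lyz1 UMIs and 82.0 CPM in the 10710 cells with none.

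Cell by cell, Sftpc and Sftpb were detected in most epithelial-like cells, and Lamp3, Abca3 and Slc34a2 in smaller shares at the same depth. Of the epithelial-like cells thinned to 2000 UMIs (955 with vehicle and 1003 with tamoxifen before depletion, 6391 and 7034 after it, the 9 to 129 shallower cells of each library being left out), 90.8%, 92.6%, 97.8% and 97.6% held an Sftpc UMI. The median cell gave 112, 108, 102 and 115 of its 2000 UMIs to Sftpc, and the cells above the 90th percentile held 27.1% to 30.9% of the Sftpc UMIs. Sftpb was detected in 93.5%, 93.3%, 94.4% and 93.7%, a share near that of Sftpc in spite of its lower level. At the same thinned depth Lamp3 was detected in 51.9%, 40.6%, 39.7% and 38.7%, Abca3 in 52.9%, 49.1%, 39.5% and 45.0%, and Slc34a2 in 69.5%, 67.8%, 60.9% and 67.6%. Without thinning, Abca3 was found in 92.1%, 92.8%, 87.0% and 90.3% of cells. Napsa was detected in 56.6% of thinned cells with vehicle and 34.9% with tamoxifen before depletion, and in 55.3% and 34.5% after it. These are shares of the cells of 1 library each. Without thinning the Napsa shares were 81.6% and 61.5% before depletion and 80.6% and 58.6% after it.

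RNA of these genes was also seen in cells that are not epithelial, and there the 10 genes parted into a pair of groups. Before depletion, lymphoid cells, which do not make surfactant, held 4.08% (vehicle) and 5.23% (tamoxifen) of the epithelial-like CPM of Sftpc, and a thinned lymphoid cell held an Sftpc UMI in 54.4% and 60.3% of cases. Most of those UMIs sat in few barcodes. The 112 of 1736 and 85 of 1016 lymphoid cells that also held an Epcam UMI had 86.6% and 89.1% of the Sftpc UMIs of the class. Without such cells the lymphoid level was 0.606% and 0.663% of the epithelial-like level. The levels that follow leave out every cell with an Epcam UMI, which in the macrophage classes also leaves out 48.7% to 64.4% of cells and the deeper ones.

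**Figure D3:**
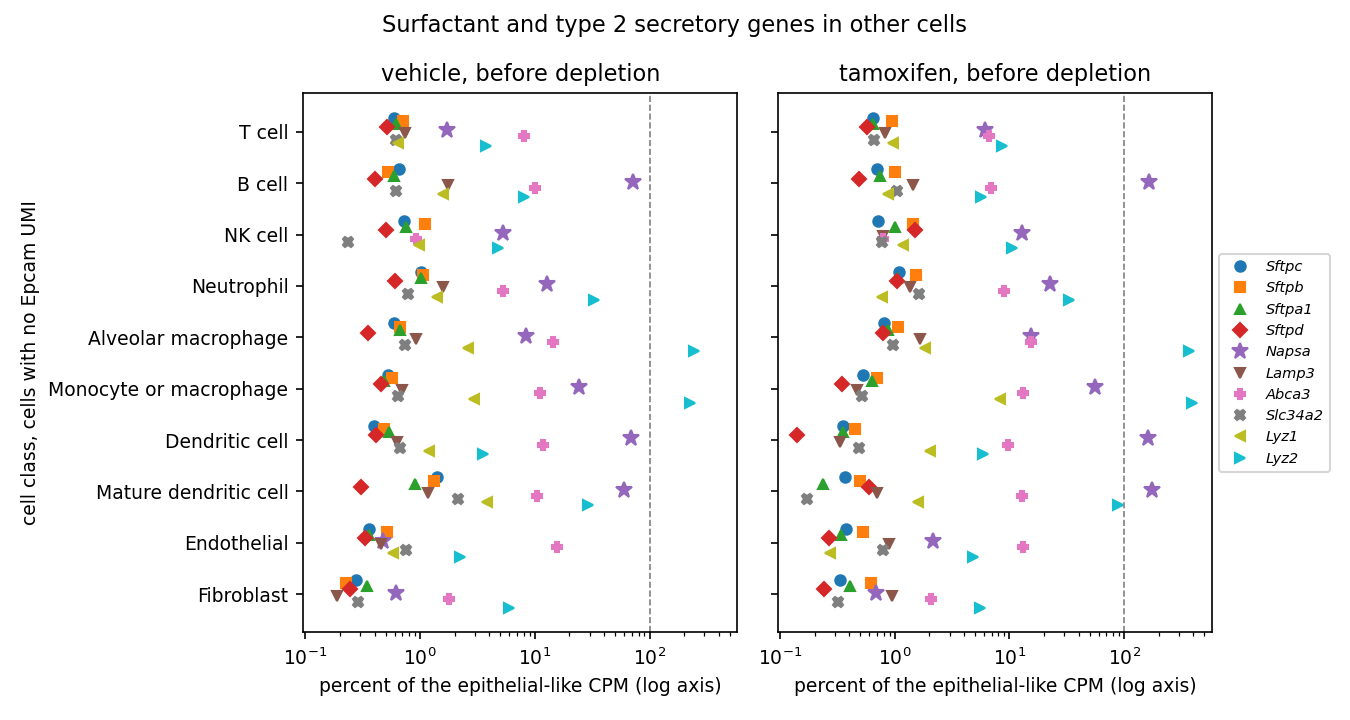
Level of each gene in 10 other cell classes before depletion, in cells without an Epcam UMI, as a percent of its CPM in the epithelial-like cells of the same library (log axis; dashed line, 100%); a gene with 0 UMIs in a class has no point. Sftpc lies between 0.275% and 1.41% in all classes with vehicle, and Sftpb, Sftpa1, Sftpd, Lamp3 and Slc34a2 lie near it, whereas Napsa reaches 71.0% (vehicle) and 164% (tamoxifen) in B cells and Lyz2 243% and 363% in alveolar macrophages. The epithelial-like CPM pools all states, and the alveolar type 2-like state 8 held more of Napsa and Lyz2 than these classes.

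Sftpc, Sftpb, Sftpa1, Sftpd, Lamp3 and Slc34a2 followed 1 common low level. Over the 10 classes, Sftpc ran from 0.275% (fibroblast-like) to 1.41% (mature dendritic-like) of its epithelial-like level with vehicle and from 0.332% to 1.09% with tamoxifen, with medians of 0.588% and 0.590%. Medians of the other 5 lay between 0.407% (Sftpd, vehicle) and 0.861% (Lamp3, tamoxifen). Alveolar macrophage-like cells, whose normal task is to take up and break down surfactant, held 0.592% and 0.799% for Sftpc, about the lymphoid level. Mature dendritic-like cells held Lamp3 at 5.36 and 2.55 CPM, 1.18% and 0.705% of the epithelial-like level, from 1 and 2 cells, although LAMP3 is a marker of these cells in humans. These shares cannot be told from free RNA, which enters droplets of every cell type.

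Napsa did not follow that level. B cell-like cells held it at 544 CPM with vehicle (exact Poisson interval 514 to 576) and 643 with tamoxifen (593 to 696), which is 71.0% and 164% of the epithelial-like level of the same libraries, and 87.3% and 87.4% of these cells had a Napsa UMI. That epithelial-like level pools all states, and the alveolar type 2-like state 8 of the same libraries held more Napsa, 1745 and 1645 CPM. T cell-like cells of the same suspensions had 13.2 and 24.2 CPM. Dendritic-like cells held 532 and 635 CPM and mature dendritic-like cells 458 and 683, monocyte- or macrophage-like cells 186 and 220, neutrophil-like cells 97.0 and 88.4, alveolar macrophage-like cells 64.7 and 61.0, and endothelial-like cells 3.65 and 8.37. Unlike in the epithelial-like cells, the level was not lower with tamoxifen in B cell-like or dendritic-like cells.

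Abca3 and Lyz2 were also above the common level. Abca3 was at 59.9 and 47.0 CPM in endothelial-like, 55.6 and 55.0 in alveolar macrophage-like, 31.1 and 23.9 in T cell-like, and 6.88 and 7.48 in fibroblast-like cells, or 15.5%, 13.1%, 14.4%, 15.3%, 8.04%, 6.66%, 1.78% and 2.08% of the epithelial-like level. In NK cell-like cells it was at 0.912% and 0.787%, from 2 UMIs and 1. Lyz2 was at 11459 and 11472 CPM in alveolar macrophage-like cells and 10587 and 12374 in monocyte- or macrophage-like cells, against 4715 and 3157 in epithelial-like cells. State 8 alone held more Lyz2 than these macrophages, 19320 and 20011 CPM. Lyz1 was far lower in the same macrophages, with at most 8.24% of the epithelial-like level (tamoxifen, monocyte- or macrophage-like), and no class had as much as 10%. With the Epcam-positive cells kept, Lyz1 had stood at 40.2% in NK cell-like cells with vehicle and 89.0% in B cell-like cells with tamoxifen, against 0.973% and 0.866% without them.

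After depletion the background of the 6 genes was higher. Endothelial-like cells without an Epcam UMI held 5.47% (vehicle) and 2.14% (tamoxifen) of the epithelial-like Sftpc level, and fibroblast-like cells 2.76% and 1.66%. Of thinned endothelial-like cells, Epcam-positive ones included, 92.5% and 98.3% held an Sftpc UMI, against 97.8% and 97.6% of epithelial-like cells, so a single UMI of Sftpc did not separate the classes in those libraries. Napsa in endothelial-like cells was at 2.37% (19.5 CPM) and 1.46% (6.33 CPM), from 24 and 5 UMIs, against 0.476% and 2.13% before depletion.

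Between treatments, none of the 10 genes was 2-fold apart the same way in both pairs, where 1.34% of the 9038 genes tested were (34 higher and 87 lower with tamoxifen). Ratios are log2 of tamoxifen over vehicle CPM with a pseudocount of 1 CPM, and a gene entered if 1 or both libraries of every pair had 10 CPM or more, which held for all 10. The 4 surfactant proteins lay between -0.04 (Sftpd) and 0.20 (Sftpb) before depletion and between -0.09 (Sftpd) and 0.07 (Sftpc and Sftpb) after it. The median of the 10 genes was -0.07 before and 0.03 after depletion, beside -0.04 and 0.01 over all genes tested. With 1 library per group these differences have no replicate check.

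**Figure D4:**
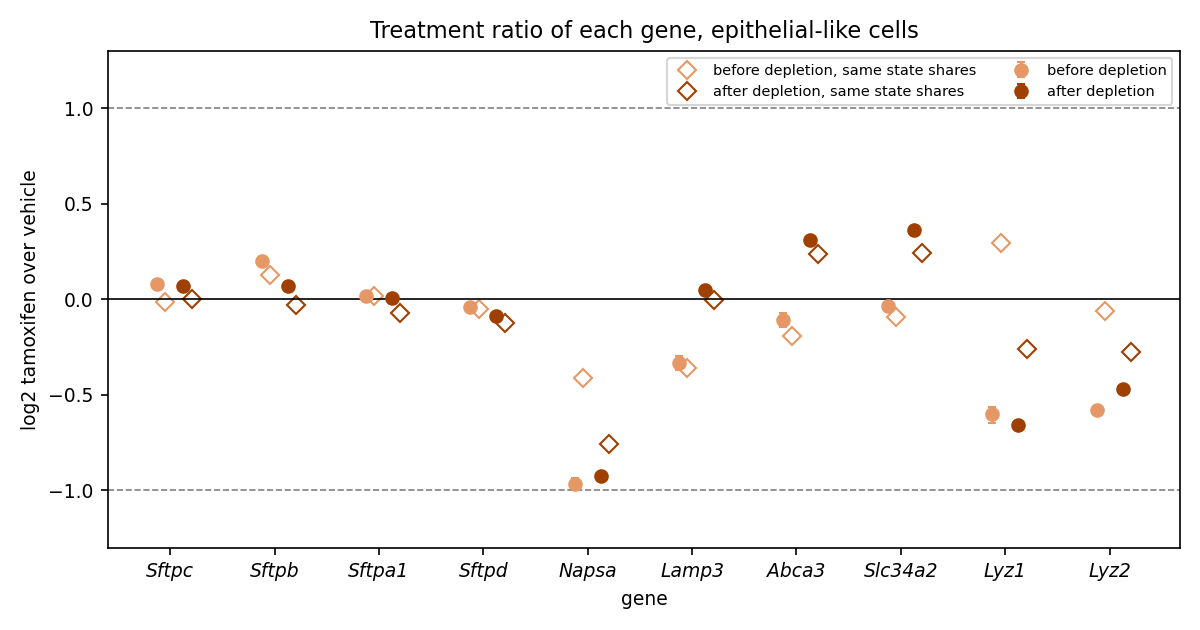
Log2 ratio of tamoxifen over vehicle CPM in epithelial-like cells for each gene; filled points are the ratios with exact conditional 95% intervals (counting error only), open diamonds the ratios with the same state shares in both libraries, and dashed lines mark 2-fold. Napsa lies nearest to the lower line in both pairs (-0.96 and -0.92), and its diamonds are closer to 0 (-0.41 and -0.76). Diamonds cover only states with at least 20 cells in both libraries, 6 before depletion and 11 after it.

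Napsa differed most among the 10. Its ratio was -0.96 before depletion (interval -0.998 to -0.934) and -0.92 after it (-0.94 to -0.91), a level 0.513 and 0.527 times that of vehicle, and it stood at percentile 1.42 and 1.34 of the genes tested. Lyz1 followed with -0.60 and -0.66, and Lyz2 with -0.58 and -0.47. Lamp3, Abca3 and Slc34a2 had ratios of opposite sign in the pairs: -0.33, -0.11 and -0.03 before depletion, and 0.05, 0.31 and 0.36 after it, but under TMM or median of ratios scaling Slc34a2 was above 0 in both. How many of all genes had ratios of opposite sign was not counted.

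The epithelial-like states were present in unlike proportions in the libraries of the treatments. Whether each state holds tumour cells, normal epithelium or both was not tested. State 7 (1768 cells, led by Bpifa1 and Dlk1, with 65983 CPM of Sftpc, 210 of Napsa and 7.45 of Lyz1) made up 0.196% of the epithelial-like cells with vehicle and 19.8% with tamoxifen before depletion, and 0.307% and 21.8% after it. State 2 was at 11.7% and 1.48% before depletion and 17.9% and 1.64% after it, and state 12 (535 cells, led by Magi2 and Stra8) at 5.68% and 0% before depletion (0 of 1012 cells, which allows a share of up to 0.296%) and at 7.15% and 0.155% after it. State 8, which held 70.1% to 84.8% of the Lyz2 UMIs of each library's epithelial-like cells, made up 33.5% of the epithelial-like cells with vehicle and 17.1% with tamoxifen before depletion, and 23.5% and 15.1% after it. Inside it the Lyz2 levels were close, with 19320 and 20011 CPM before depletion and 21794 and 21017 after it (ratios 0.05 and -0.05). Lyz1 in state 8 was at 1564 and 1758 before depletion and at 1923 and 1756 after it (0.17 and -0.13). When both libraries of a pair were given the same shares of the states that each held with at least 20 cells, the Lyz2 ratio went from -0.58 to -0.06 before depletion (6 states) and from -0.47 to -0.28 after it (11 states), and the Lyz1 ratio from -0.60 to 0.29 and from -0.66 to -0.26. Over the states with at least 50 cells in both libraries of a pair, state 8 included, the Lyz2 ratio was below 0 in 3 of 4 before depletion and in 10 of 10 after it, where the median was -0.94. After depletion it was -1.26 in state 1 (345 and 143 CPM), -1.31 in state 2 (307 and 123), -1.68 in state 11 (1138 and 355), -0.54 in state 4 (2725 and 1872) and -0.10 in state 10 (14924 and 13900). Endothelial-like cells without an Epcam UMI held 431 CPM of Lyz2 with vehicle and 68.3 with tamoxifen after depletion. Fibroblast-like ones held 137 and 65.5. The values of states 1 and 2 lie within the endothelial-like range. The part of free RNA in the within-state ratios and in their count below 0 was not tested.

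Napsa was lower with tamoxifen within most states as well. With at least 50 cells in both libraries, its ratio was below 0 in 4 of 4 states before depletion and in 9 of 10 after it, each of these with an interval below 0. After depletion it was -1.90 in state 6 (318 CPM with vehicle, 84.7 with tamoxifen), -1.67 in state 2 (793 and 249), -1.15 in the cycling state (639 and 288), -0.89 in state 4 (705 and 379), -0.73 in the alveolar type 1-like state (859 and 516) and -0.70 in state 1 (239 and 146). The smallest drop was in the alveolar type 2-like state 8, at -0.08 before depletion (1745 and 1645 CPM) and -0.30 after it (2236 and 1821). State 11 (448 cells, led by Dcpp1 and Adgrg7) was the exception, at 0.07 (380 and 399). With the same state shares in both libraries the whole-class ratio was -0.41 before depletion and -0.76 after it, which is 759 against 571 CPM and 793 against 469 CPM.

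**Figure D5:**
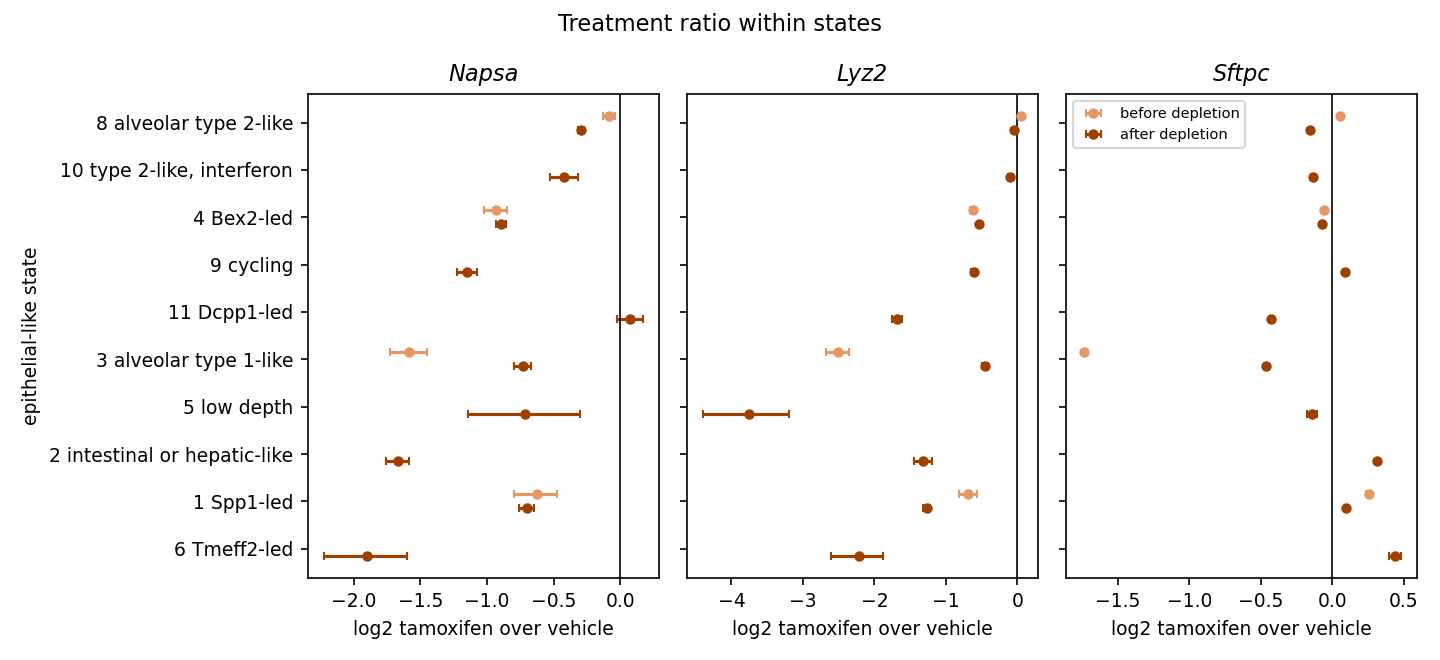
Log2 ratio of tamoxifen over vehicle CPM for Napsa, Lyz2 and Sftpc within each state that had at least 50 cells in both libraries of a pair, with exact conditional 95% intervals; states are ordered by Sftpc level. In state 8, at the top, Lyz2 is at 0.05 and -0.05, while Napsa is below 0 in all rows but that of state 11.

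Sftpc within states was mixed, below 0 in 2 of 4 states before depletion and 6 of 10 after it. Its lowest ratio, -1.73 before depletion, was in the alveolar type 1-like state, where 68 vehicle and 97 tamoxifen cells held 52425 and 15765 CPM. In that state and pair Sftpa1 (-2.76), Sftpd (-1.76), Lamp3 (-1.76), Slc34a2 (-1.59) and Lyz2 (-2.51) were low as well. After depletion, with 414 and 568 cells, the Sftpc ratio there was -0.46. Over all libraries a thinned cell of this state held a median of 15 Sftpc UMIs and a mean of 72.6, so its level rested on a part of its cells. Abca3 was above 0 in 9 of 10 states after depletion, with a median of 0.26, and in 1 of 4 before it.

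Other genes of the pathway were read from 3 lists, in which the 1.34% called among all genes would give less than 1 gene each, so counts of 0 say little about them. Of 19 other type 2 genes all were tested and 0 were 2-fold apart the same way in both pairs, with medians of 0.00 before and 0.03 after depletion. Il33, an alarmin made by type 2 cells, was lowest in this list in both pairs (-0.78 and -0.70, from 168 to 97.3 CPM and from 147 to 90.1), and Ctsh, a cathepsin that takes part in maturing surfactant proteins B and C, was at 0.30 and 0.40 (1507 to 1851 and 1488 to 1963 CPM). Nkx2-1 was at 253 and 265 CPM before depletion and 203 and 224 after it. Of 22 genes of surfactant lipid synthesis 20 were tested and 0 were apart, with medians of -0.17 and -0.04. Gpam, which begins glycerolipid synthesis, was lowest (-0.86 and -0.45, from 31.8 to 17.1 and from 18.1 to 13.0 CPM), while Scd1, a fatty acid desaturase, was at -0.52 and -0.03. Of 12 genes used by alveolar macrophages to clear surfactant 5 reached the minimum in epithelial-like cells and 0 of these were apart, with medians of 0.03 and 0.11. Lpl lay just under the minimum and so was not tested, at -1.48 and -1.91 (from 9.69 to 2.83 and from 9.51 to 1.79 CPM). The medians of all genes tested were -0.04 and 0.01.

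Across 34 groups of cells (each a state in 1 library with at least 50 cells, all sharing libraries and the free RNA of their suspension), Sftpc, Sftpa1 and Sftpd had the most similar levels among the surfactant proteins, and Sftpb was less like them. The Pearson r of log2(CPM + 1) was 0.97 between Sftpc and Sftpa1, 0.95 between Sftpc and Sftpd, 0.79 between Sftpc and Sftpb, 0.67 between Sftpb and Sftpd, 0.76 between Lyz1 and Lyz2 and 0.47 between Sftpb and Napsa. Outside the set, Sftpc was most like Sord (r = 0.94) and Lcn2 (0.94), Sftpa1 like Cxcl15 (0.96), Sftpb like Cebpa (0.88), Sftpd like Cd74 (0.92), Lamp3 like Fasn (0.95), Abca3 like Lrp2 (0.93), Slc34a2 like Lgi3 (0.98), Lyz2 like Lrg1 (0.97), Napsa like Gde1 (0.85) and Lyz1 like Il33 (0.78). Across single thinned cells r between Sftpc and Sftpa1 was 0.80 to 0.81 in the 4 libraries, and that between Sftpc and Napsa was 0.50 with vehicle and 0.34 with tamoxifen before depletion and 0.48 and 0.35 after it.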

How the data were processed

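Counts of UMIs per gene and barcode were used as deposited by the authors. Per the file headers the matrices came from Cell Ranger 7.0.1, whereas the submitters' processing notes name Cell Ranger 7.2.0 and mm10. The chemistry was 10x Genomics 3′ version 3, per the labels' protocols. One further labelled allele is not reported here. Of the feature identifiers, 32158 matched GENCODE M21. Barcodes under 200 genes or over 20% mitochondrial UMIs were dropped, and 122 to 216 doublets per library were removed at a Scrublet score of 0.25 (scanpy 1.11.5), because the automatic threshold marked 1 and 0 cells after depletion. Cells were clustered on 2000 variable genes and 40 components with Leiden (igraph 0.11.9) and named from marker lists, so names are "X-like" and rebuilt. Epithelial-like cells were reclustered at resolution 0.6 without the 10 genes. Sums per library and class gave CPM. Intervals are exact 95% intervals that cover counting error only. The size rule is no test. The 10 genes, the lists, the rule for genes of like pattern (the 2 highest r among genes of at least 10 CPM, of which the first is given for most) and the limits were chosen with earlier results of these data known. Alternatives included TMM factors (edgeR 4.0.16).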

Additional observations from a re-analysis of the deposited data

Results flagged for a closer look

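Lamp3, Abca3 and Slc34a2, the lamellar body glycoprotein, the lipid transporter and the phosphate cotransporter, had tamoxifen over vehicle ratios of opposite sign before and after depletion, with both counting intervals off 0. Lamp3 was at -0.33 before depletion and 0.047 after it, Abca3 at -0.11 and 0.31, and Slc34a2 at -0.035 and 0.36 on the log2 scale. The intervals cover counting error only, and the difference between the pairs was not tested, since each group holds 1 library. The share of all genes with such a change of sign was not counted, so it does not set these 3 genes apart. These 3 genes were also those with the largest fall from before to after depletion, 0.60 to 0.64 with vehicle and 0.22 to 0.24 with tamoxifen. With TMM factors and with median of ratios factors the Slc34a2 ratio before depletion was above 0, so its change of sign does not hold under those scalings. Lamp3 after depletion kept its sign under 11 of 15 alternatives and was at -0.18 with the mean of each cell's CPM. Without the alveolar type 2-like state Lamp3, Abca3 and Slc34a2 before depletion were at 0.11, 0.15 and 0.41, so none of the 3 changed sign there.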

How the results depend on the processing

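No paired analysis was possible because each group holds 1 library, and leaving one out would leave a group empty. Of the 10 genes, 0 were 2-fold apart in both pairs under 14 of 16 alternatives. With a 1.5-fold limit 2 were (Napsa and Lyz1), and without the alveolar type 2-like state 1 was (Napsa, at -1.11 and -1.06). Over all genes the main counts were 34 higher and 87 lower. They were 12 and 28 with a pseudocount of 10 CPM, 12 and 19 with a minimum of 50 CPM, and 101 and 194 at 1.5-fold. Lower genes numbered 167 with no minimum, 55 with the mean of each cell's CPM, and 28 without the states that came over 80% from 1 library, which was added after seeing the data. The Napsa and Lyz2 ratios after depletion were below 0 under 15 of 15 alternatives, as was Napsa before depletion. Among these, free RNA was subtracted at the level of lymphoid cells before depletion, Epcam-positive ones kept. B cell-like cells hold Napsa, so for that gene this alternative does not measure free RNA. Lyz2 before depletion turned to 0.23 without the alveolar type 2-like state, Lyz1 before depletion turned above 0 under 2 alternatives, at most to 0.29 with the same state shares, and Sftpc ran from -0.12 to 0.49 before depletion and from -0.18 to 0.35 after it. Sftpc kept its sign before depletion under 11 of 15 alternatives, Slc34a2 under 12. The ratios moved by more than counting error in 147 of 300 recalculations. Levels in other classes moved beyond counting error in 125 of 160 when cells with an Epcam UMI were left out. Depth limits the lowest levels, such as Lyz1 in state 6, which rests on 14 UMIs.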

Other observations

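The cells set apart for carrying both macrophage and epithelial genes (71 with vehicle and 98 with tamoxifen before depletion) held Sftpc at 54.9% and 63.5% of the epithelial-like CPM, Napsa at 68.8% and 72.8% and Lyz2 at 86.5% and 103%. Their medians were 39849 and 36223 UMIs, above the 24363 and 28489 of epithelial-like cells. After depletion 1 and 0 such cells were seen.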
